A study of Homo sapiens with 8 samples.

Results

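Heparan sulfate proteoglycans are cell surface and matrix proteins that carry long sulfated sugar chains, and APRIL, the cytokine encoded by TNFSF13, binds those chains as well as the receptors TACI and BCMA. The genes described here are 10 of 11530 in the deposited table. They are 3 core proteins (GPC1, SDC2 and SDC4) and 7 enzymes that build and modify the chains (EXT1, EXT2, EXTL2, EXTL3, NDST1, GLCE and HS2ST1). They were chosen by symbol and function and not by their values, although earlier results of these data were known when they were chosen. All 10 were in the table, and all 10 reached a log2 value of at least 0 in no fewer than 4 libraries, the minimum set for testing.

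Synthesis of a heparan sulfate chain starts with a short linker of xylose, galactose and glucuronic acid that is built on a serine of the core protein. EXTL3 adds the first sugar that commits the linker to heparan sulfate, the EXT1 and EXT2 proteins together extend the chain as a polymerase, and NDST, GLCE and HS2ST enzymes then trim, sulfate and epimerise it. The sulfated stretches that result are what basic patches of growth factors, chemokines and APRIL bind, and on blood cells such chains can hold the ligand at the surface.

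RNA was sequenced from MonoMac 6, an established human line from an acute monocytic leukaemia, in 8 libraries. The 4 libraries labelled APRIL came from cells given human APRIL at 100 ng/mL for 24 h in medium without serum, and the 4 control libraries came from cells without APRIL. Both groups had unnamed baseline cytokines in their medium according to the series text. The line was grown in 10% fetal bovine serum, and the labels do not say whether the controls stayed in serum, so APRIL and the absence of serum cannot be told apart. All libraries are of 1 cell line, and nothing says that they came from separate cultures, so the p-values rest on a spread among libraries that could be technical. In bulk RNA, fewer cells of a type and less RNA per cell cannot be told apart.

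Of 14 monocytic markers 12 were tested, among them CD14, LYZ, MPO, CD33, SPI1, CSF1R and ITGAM. The deposited table held the B cell and plasma cell markers CD79A, CD79B, PAX5 and MZB1. Of the 12 markers in that list 7 were absent, MS4A1, BLK, JCHAIN and CR2 among them. The table also held 2 of 8 T and NK cell markers and 0 of 12 fibroblast, epithelial and endothelial markers. The BCMA and TACI receptor genes are not analysed here. Column names show the group but do not number the replicates, so libraries are called columns 1 to 4 by their order within a group, and values below are given in that order. Whole reads could be recovered from the values of 10798 genes (93.7%), including all 10 described here, and over those genes the libraries held 757982 reads (APRIL column 3) to 4409929 reads (APRIL column 2). By recovered reads per kilobase of the longest transcript, SPI1 stood above 97.9% of 10318 ranked genes, CD14 above 54.6% and CSF1R above 5.54%. CD79B stood above 53.6% and PAX5 above 20.0%, so monocytic and B cell markers overlapped in level. Of the libraries, APRIL column 3 and control column 1 stood apart from the rest. They held the highest of the 8 values for 33.6% and 26.3% of genes, and the lowest for 32.9% and 25.7%.

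None of the 10 heparan sulfate genes passed the test between APRIL and control (limma, adjusted p under 0.05), where 0.0% of 11257 tested genes passed. GPC1 alone had an unadjusted p under 0.05, which is 1 of 10 genes where 11.9% of all tested genes did so (6.25% higher and 5.69% lower). Of the 10 changes, 3 were positive and 7 negative, with a median of -0.09 on the log2 scale. Over all tested genes 49.3% of changes were positive and the median was -0.01. For none of the 10 genes did the APRIL values lie wholly above or below the control values, a separation seen for 7.81% of all tested genes (3.62% higher and 4.19% lower). A change is APRIL minus control in deposited log2 values, with its standard error from limma and 4 libraries per group.

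GPC1 encodes glypican-1, a core protein held in the membrane by a lipid anchor. Its log2 value was 5.46, 5.23, 5.79 and 5.85 with APRIL and 4.59, 4.76, 5.26 and 5.17 in control. Of the 4 APRIL values, 3 lay above every control, while APRIL column 2 lay just under control column 3. The means were 5.58 ± 0.29 (SD, n = 4) with APRIL and 4.94 ± 0.32 (SD, n = 4) in control. The change of +0.64 ± 0.20 is a 1.55-fold difference with a 95% interval of 1.14 to 2.11. In limma its unadjusted p was 0.0096 and its adjusted p was 0.40, so the call did not hold over all genes. The deposited values rest on 79, 127, 29 and 115 recovered reads with APRIL and on 31, 23, 45 and 67 in control. Counting error alone would give an SD of 0.18 with APRIL and 0.24 in control, against the observed 0.29 and 0.32. In the authors' deposited table the same gene has a fold of 1.55 and a p-value of 0.0261. Library quality weights count libraries that stand apart for less, and were 5.46, 1.33, 0.117 and 1.09 for the APRIL columns. A weighted APRIL mean thus rests mostly on column 1. With these weights the change was +0.40 (limma, unadjusted p = 0.0146). After the dependence of each library on transcript length and GC content was fitted and taken out, it was +0.33 (unadjusted p = 0.067 in limma).

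The syndecans are core proteins that span the membrane. SDC2 stood at 5.61, 5.53, 6.24 and 5.59 with APRIL and at 5.58, 5.75, 5.63 and 5.41 in control. Only APRIL column 3 was above the controls. Its change was +0.15 ± 0.18, with an interval of 0.85-fold to 1.46-fold, and without APRIL column 3 it was -0.01. SDC4, which also takes part in focal adhesion, stood at 3.55, 3.38, 3.93 and 3.74 with APRIL and at 3.77, 3.70, 3.59 and 3.74 in control. The APRIL values lay on both sides of a narrow control range (SD 0.08 in control and 0.24 with APRIL). Counting error alone would give an SD of 0.15 in either group, so the control spread was below that of counting. The change of SDC4 was -0.05 ± 0.15, with an interval of 0.76-fold to 1.22-fold. That interval ends below the 1.55-fold fitted for GPC1 but overlaps the GPC1 interval of 1.14-fold to 2.11-fold.

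**Figure D1:**
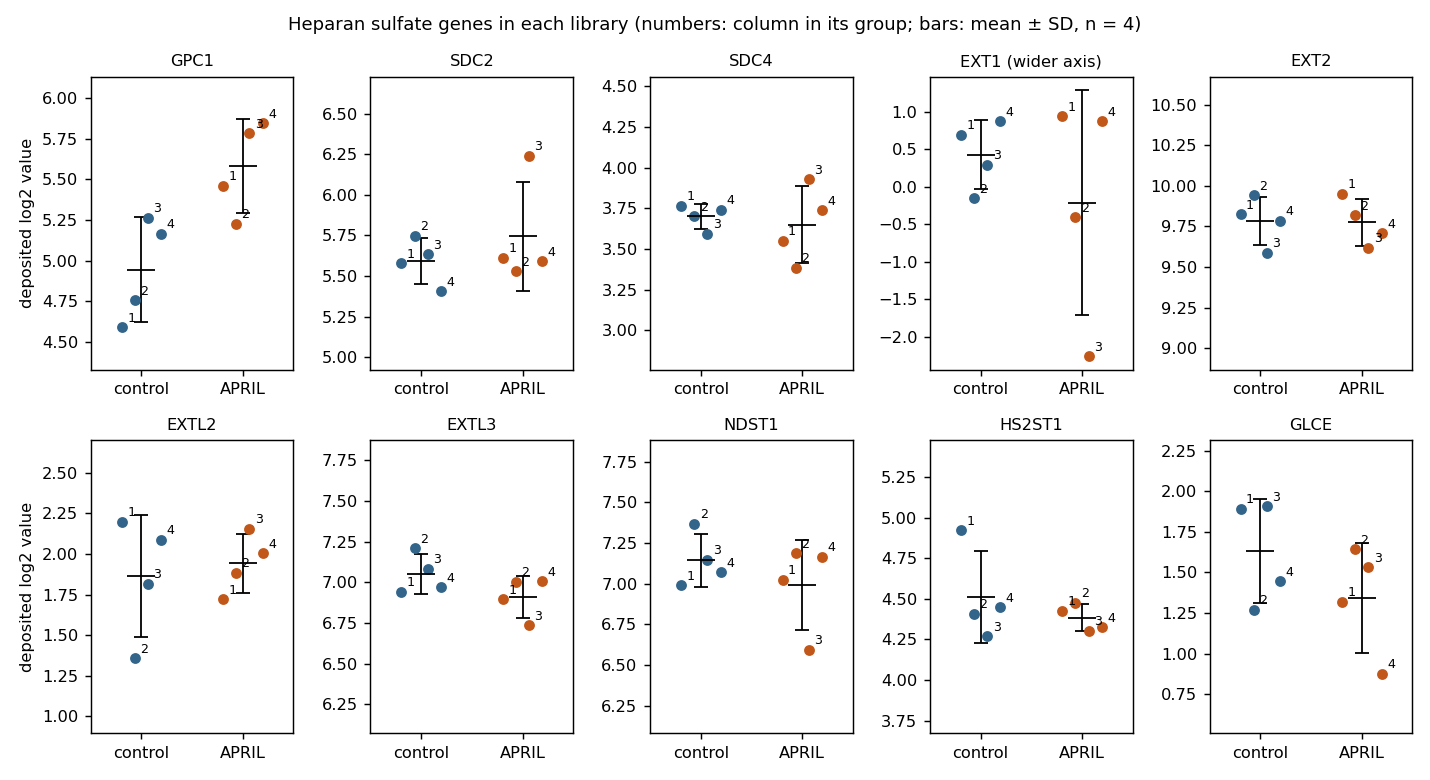
Deposited log2 value of each heparan sulfate gene in the 4 control and 4 APRIL libraries, 1 panel per gene, with numbered points for the columns of a group and bars for the mean ± SD (n = 4). All axes span the same range except that of EXT1. GPC1 has 3 APRIL points above all controls, and the EXT1 panel is set by APRIL column 3 at -2.26. In the other 8 panels the groups overlap, although for EXTL3 and GLCE all 4 APRIL points are below the control median.

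The relation of GPC1 to SDC4 was also taken inside each library, where any factor common to all genes of a library drops out. The log2 value of GPC1 minus that of SDC4 was 1.91, 1.84, 1.86 and 2.11 with APRIL and 0.82, 1.06, 1.67 and 1.42 in control. All 4 APRIL differences were above all 4 control differences. The groups differed by 0.69, and an exact permutation test (two-sided) gave p = 0.0286, the smallest that 4 against 4 can give, and 0.0857 adjusted over the 3 gene pairs compared. The pair was chosen with the GPC1 value known, so this is no independent support. With the length and GC trends removed the difference was 0.43 (exact two-sided permutation p = 0.0571, 0.129 adjusted over 3 pairs).

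EXT2 and EXT1 encode the polymerase partners. EXT2 stood at 9.95, 9.82, 9.62 and 9.71 with APRIL and at 9.82, 9.94, 9.59 and 9.78 in control. The 8 values spanned 0.36, with columns of both groups at either end. Its change was -0.01 ± 0.12, and the interval ran from 0.82-fold to 1.20-fold.

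EXT1 was close to the floor of the data. Its values were 0.94, -0.40, -2.26 and 0.88 with APRIL and 0.70, -0.15, 0.29 and 0.88 in control. These values rest on 15, 11, 0 and 16 recovered reads with APRIL and on 9, 3, 6 and 15 in control. The low value of APRIL column 3 is a count of 0 in the shallowest library, which still allows up to 3 reads, or a log2 value of 0.55. That limit lies inside the range of the controls, so a difference there was not detectable at this depth. The fitted change was -0.64 ± 0.63, and without APRIL column 3 it was +0.04. Inside each library, EXT1 minus EXT2 differed between groups by -0.63 (exact two-sided permutation p = 0.571, 0.857 adjusted over 3 pairs), by -0.0011 without APRIL column 3 and by -0.41 with the length and GC trends removed.

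EXTL3 starts the heparan sulfate chain on the finished linker. Its log2 value was 6.90, 7.004, 6.73 and 7.01 with APRIL and 6.94, 7.21, 7.08 and 6.97 in control. All 4 APRIL values were below the control median of 7.03, and 2 of them were below every control. The change was -0.14 ± 0.12, with an interval of 0.75-fold to 1.10-fold (limma, adjusted p = 0.54). With the length and GC trends removed it was +0.06. EXTL2, a transferase that can cap the linker and so stop a chain, stood at 1.72, 1.88, 2.16 and 2.003 with APRIL and 2.20, 1.36, 1.82 and 2.09 in control. Its APRIL values all lay within the control range. Its change was +0.08 ± 0.22, and -0.09 without control column 2, the lowest library.

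Of the modifying enzymes, NDST1 acts first by replacing acetyl groups with sulfate, and later steps depend on it. Its log2 value was 7.03, 7.19, 6.59 and 7.17 with APRIL and 6.99, 7.37, 7.15 and 7.07 in control. APRIL column 3 was low, and the other 3 APRIL values lay inside the control range. The change was -0.15 ± 0.16, and -0.02 without APRIL column 3. NDST1 had the most reads of the 10 genes in 7 of the 8 libraries, with 116 to 1119 per library. Counting error would give an SD of 0.08 with APRIL, against 0.28 observed.

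GLCE, the epimerase that turns glucuronic acid into the more flexible iduronic acid, stood at 1.32, 1.64, 1.53 and 0.88 with APRIL and at 1.89, 1.27, 1.91 and 1.45 in control. The groups overlapped, although all 4 APRIL values were below the control median of 1.67. Its change was -0.29 ± 0.23, with an interval of 0.57-fold to 1.18-fold (limma, adjusted p = 0.52). Without APRIL column 4 it was -0.13, and with the length and GC trends removed it was -0.08. HS2ST1 adds sulfate to the uronic acids, with iduronic acid as its preferred substrate. It stood at 4.43, 4.48, 4.30 and 4.33 with APRIL and 4.92, 4.41, 4.27 and 4.45 in control. The SD of the APRIL values was 0.08, where counting error alone would give 0.12, and control column 1 was the single high library. Its change was -0.13 ± 0.16, and +0.01 without control column 1. Inside each library, NDST1 minus HS2ST1 differed between groups by -0.02 (exact two-sided permutation p = 0.886, also 0.886 adjusted over 3 pairs). With the length and GC trends removed this difference was -0.24 (exact two-sided permutation p = 0.0857, 0.129 adjusted over 3 pairs).

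**Figure D2:**
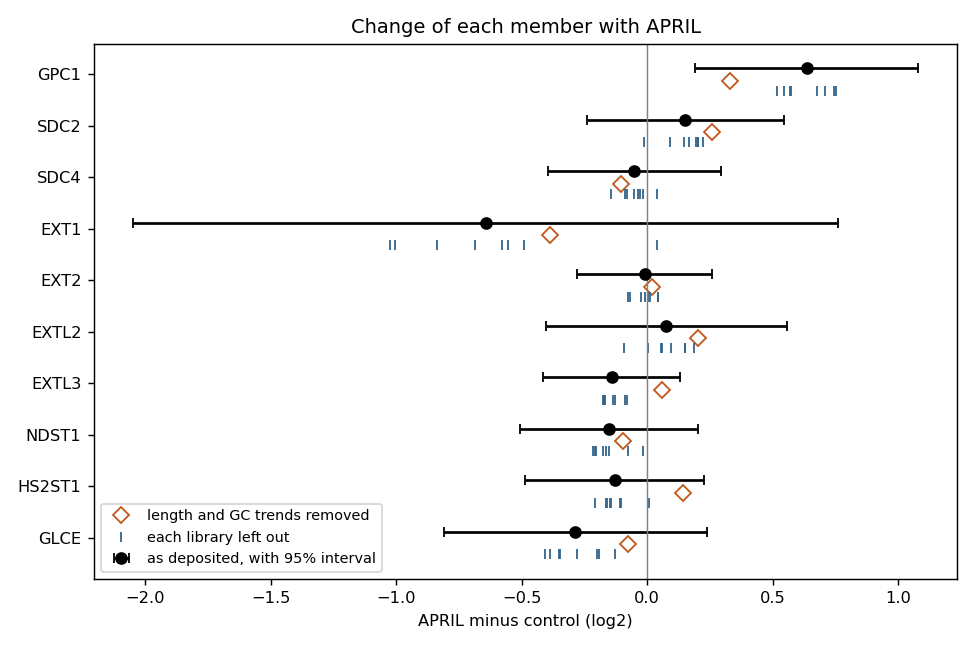
Change of each heparan sulfate gene, APRIL minus control on the log2 scale, as black points with 95% intervals from limma. Open diamonds give the change with length and GC trends removed and ticks give the change with each library left out. Only the GPC1 interval, 0.19 to 1.08, stays clear of 0, and its diamond stands at 0.33.

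The 95% intervals set what the data could show. From the change to either end they spanned a median of 0.37 over the 10 genes, against 0.41 over all tested genes, on the log2 scale. For EXT2, EXTL3, NDST1, HS2ST1 and SDC4 the upper ends ran from 1.10-fold (EXTL3) to 1.22-fold (SDC4), and the lower ends from 0.70-fold (NDST1) to 0.82-fold (EXT2). EXT1 was the opposite case, with an interval of -2.05 to 0.76 on the log2 scale.

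The deposited values cannot be set side by side between genes, since EXT2 at a log2 value of 9.82 held 280 reads in control column 1 and SDC2 at 5.58 held 198. Recovered reads per kilobase of the longest annotated transcript and per 1000000 recovered reads of a library give a common scale. On that scale the control means were 46.3 ± 4.55 for EXT2, 31.2 ± 2.94 for SDC2, 30.5 ± 3.54 for NDST1 and 21.6 ± 1.11 for SDC4 (SD, n = 4). SDC2 and NDST1 did not differ beyond their spread. HS2ST1 (16.3 ± 3.37), EXTL2 (13.6 ± 3.31) and EXTL3 (11.97 ± 1.03) followed, each within the spread of its neighbour. GLCE (6.89 ± 1.502) and GPC1 (6.39 ± 1.46) were lower and again within each other's spread, and EXT1 came last at 0.541 ± 0.186. With APRIL the mean of GPC1 on this scale was 9.74 ± 1.74 and that of GLCE was 5.56 ± 1.20. SDC2 had the highest transcript level of the 3 core proteins in both groups, at 34.5 ± 6.99 with APRIL. The polymerase partners stood at opposite ends, EXT2 above 80.0% and EXT1 above 0.107% of the 10318 genes ranked. The isoform these cells use may be shorter than the longest one, which would raise a gene's level on this scale.

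The wider pathway was read in 5 further lists, 47 tested genes in all. None passed the adjusted threshold, 3 had an unadjusted p under 0.05 with a higher value and 1 with a lower one, together 8.51% against 11.9% of all tested genes. Groups without overlap were seen for 7 genes (14.9% of 47, against 7.81% of all tested genes). They were B4GALT7, B3GAT3 and B3GALT6 on the higher side and CSGALNACT2, CHSY1, PAPSS1 and HS3ST3B1 on the lower side. CHSY1 and PAPSS1 are named for that count, after their values were seen.

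All 3 of the higher genes build the linker that every heparan and chondroitin sulfate chain shares. B4GALT7 adds the first galactose, and stood at 5.65, 5.51, 5.82 and 5.70 with APRIL against 4.70, 5.24, 5.12 and 5.28 in control. Every APRIL library was above every control. Its change was +0.58 ± 0.16, or 1.498-fold with an interval of 1.17 to 1.91 (limma, unadjusted p = 0.0041, adjusted p = 0.40). With the length and GC trends removed it was +0.35 (limma, unadjusted p = 0.0022, adjusted p = 0.57). B3GALT6 adds the second galactose. Its values were 7.41, 7.35, 7.93 and 7.57 with APRIL and 6.59, 7.29, 7.27 and 7.31 in control. Outside APRIL column 3 and control column 1 the groups lay close together. Its change was +0.45 ± 0.20, and +0.28 without control column 1, +0.18 with quality weights and +0.12 with the trends removed. B3GAT3 completes the linker with glucuronic acid, and stood at 5.68, 5.52, 6.79 and 5.90 with APRIL and 4.99, 5.41, 5.08 and 5.46 in control. APRIL column 3 was far above the others, and APRIL column 2 cleared the highest control by a small margin. Its change was +0.74 ± 0.26, with +0.46 when APRIL column 3 was left out, +0.39 under quality weights and +0.34 after the trends were taken out.

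The other linker enzymes did not share this pattern. XYLT1, which attaches the xylose, was at -0.39 ± 0.22, its paralogue XYLT2 at +0.14 ± 0.18 and the xylose kinase FAM20B at -0.09 ± 0.17. With the trends removed XYLT1 was at -0.22, and both others turned sign, XYLT2 to -0.07 and FAM20B to +0.12. Over the list of linker and precursor enzymes, 7 of 19 changes were positive and 12 negative, with a median of -0.07. PAPSS1, which makes the sulfate donor, stood at -0.24 ± 0.14. SLC26A2, a sulfate transporter of the plasma membrane, stood at -0.49 ± 0.23, and at -0.21 with the trends removed.

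**Figure D3:**
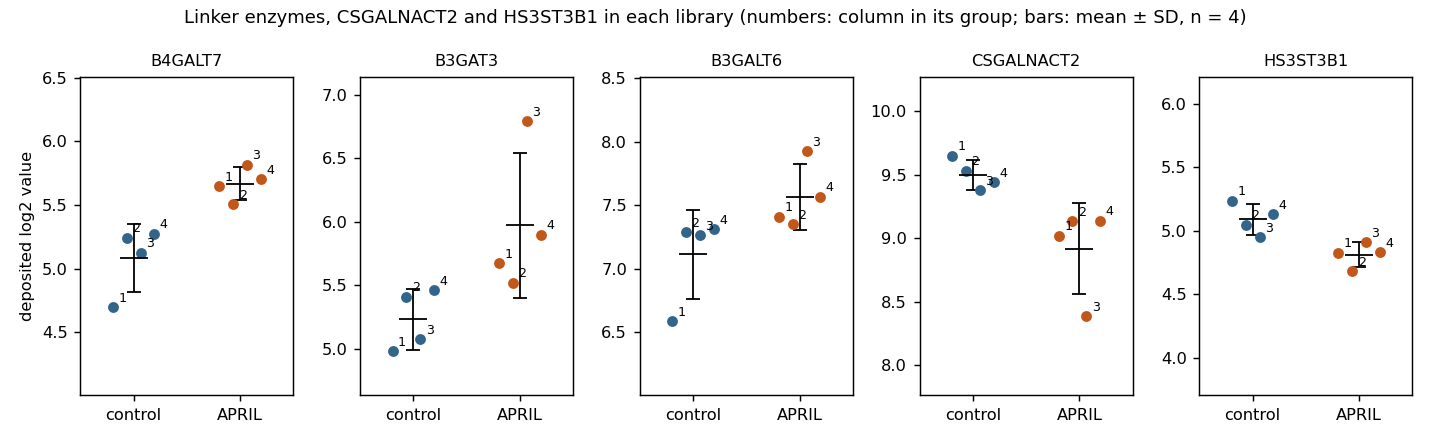
Deposited log2 value of 3 linker enzymes, of CSGALNACT2 and of HS3ST3B1 in each control and APRIL library, with the mean ± SD (n = 4) and points numbered by column. The groups do not overlap in any panel. Control column 1 is the control point farthest from the APRIL points in all 5 panels, and APRIL column 3 is the APRIL point farthest from the controls in 4 of the 5.

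The chondroitin sulfate branch uses the same linker. CSGALNACT2, whose product adds the first sugar that commits a chain to chondroitin sulfate, stood at 9.02, 9.13, 8.39 and 9.14 with APRIL and 9.65, 9.53, 9.38 and 9.44 in control. All APRIL values were below all controls, and APRIL column 3 was the lowest. Its change was -0.58 ± 0.17 (limma, unadjusted p = 0.0072, adjusted p = 0.40). It was -0.35 when APRIL column 3 and control column 1 were both left out (limma, unadjusted p = 0.0015). With the trends removed it was -0.43 (limma, unadjusted p = 0.026). In limma its unadjusted p was under 0.05 in 17 of 17 alternatives, where its smallest adjusted p was 0.118. CHSY1, a chondroitin polymerase, was at -0.21 ± 0.10, and at -0.13 with the trends removed. Over the 9 tested genes of this branch 5 changes were positive and 4 negative, with a median of +0.18. It came to +0.09 when control column 1 was left out and to +0.11 when APRIL column 3 was. Quality weights gave +0.06 and removal of the trends gave +0.0092.

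The list of other chain polymerases and sulfotransferases was sparsely covered, with 3 of 14 in the table, and 2 of the 3 changes were positive. HS3ST3B1, a sulfotransferase acting on nearly finished chains, stood at 4.83, 4.68, 4.91 and 4.83 with APRIL and 5.23, 5.05, 4.95 and 5.13 in control. Its groups did not overlap, but the highest APRIL and the lowest control value were close. HS3ST3B1 had 16 to 89 recovered reads per library. Counting error alone would give an SD of 0.24 with APRIL and 0.22 in control, against the observed 0.095 and 0.12. The change was -0.28 ± 0.13 (limma, unadjusted p = 0.0505) and -0.16 with the trends removed. HS3ST1, an enzyme of the same family, was at +0.49 ± 0.25. It was at +0.30 when APRIL column 3 was left out, and at +0.69 with the trends removed (limma, unadjusted p = 0.0433).

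Of 14 other core proteins 6 were in the table and tested. Among these 0 had an unadjusted p under 0.05, where 11.9% of all tested genes did so. COL18A1, the collagen that gives rise to endostatin, was at +0.28 ± 0.27 and agrin (AGRN) at +0.17 ± 0.30. COL18A1 was at +0.13 without control column 2, at +0.17 without APRIL column 2, at +0.08 with the trends removed and at +0.48 without APRIL column 3 and control column 1. AGRN was at -0.07 without control column 1. Serglycin (SRGN), the granule proteoglycan of myeloid cells, was at +0.07 ± 0.18, and CD44, which can carry such chains, at -0.04 ± 0.12. With the trends removed both turned sign, SRGN to -0.06 and CD44 to +0.14. Of 10 tested genes for remodelling and breakdown of the chains, 5 changes were positive and 5 negative, with a median of -0.07. It came to +0.02 when APRIL column 3 was left out and to -0.01 when control column 2 was. Quality weights gave +0.0098 and a stricter floor on low values gave -0.14. ADAM17, a protease that sheds syndecans, was at -0.45 ± 0.22. It was at -0.22 when APRIL column 3 was left out, at -0.21 with quality weights and at -0.19 after the trends were taken out. NAGLU, a lysosomal enzyme of heparan sulfate breakdown, was at +0.32 ± 0.18, at +0.21 without control column 1, +0.12 with quality weights and -0.04 with the trends removed.

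The changes were also set beside GC content and transcript length. Over 10791 tested genes the change with APRIL went up with GC content (Spearman's rho = 0.507) and down with transcript length (rho = -0.537); genes share the 8 libraries, so this is a description without a p. GPC1 has a longest transcript of 3713 bases with 66.7% GC, more than 98.5% of tested genes. The trend fitted to all genes gave +0.30 at that length and GC content, of an observed +0.64. For B4GALT7, B3GAT3 and B3GALT6, at 59.1%, 63.6% and 64.3% GC, it gave +0.23, +0.40 and +0.33. CSGALNACT2 has 38.2% GC, where the trend gave -0.15. HS2ST1 and GLCE, at 37.4% and 39.0%, had trend values of -0.27 and -0.21. NDST1 is rich in GC (56.6%) but long (8030 bases), and its trend was -0.05. With the trends removed SDC2 was at +0.26, SDC4 at -0.10, EXT1 at -0.39, EXT2 at +0.02, EXTL2 at +0.20, NDST1 at -0.10 and HS2ST1 at +0.14.

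Over the 57 tested genes of all 6 lists, 16 of 18 genes above 55% GC had a positive change (88.9%), where 78.9% of all tested genes above 55% did. At or below 55% GC 10 of 39 were positive (25.6%), against 37.8% of all such genes. The 55% limit was set after the data were seen. Whether GC content or length had a part in the GPC1 and linker values beyond these fits was not tested.

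**Figure D4:**
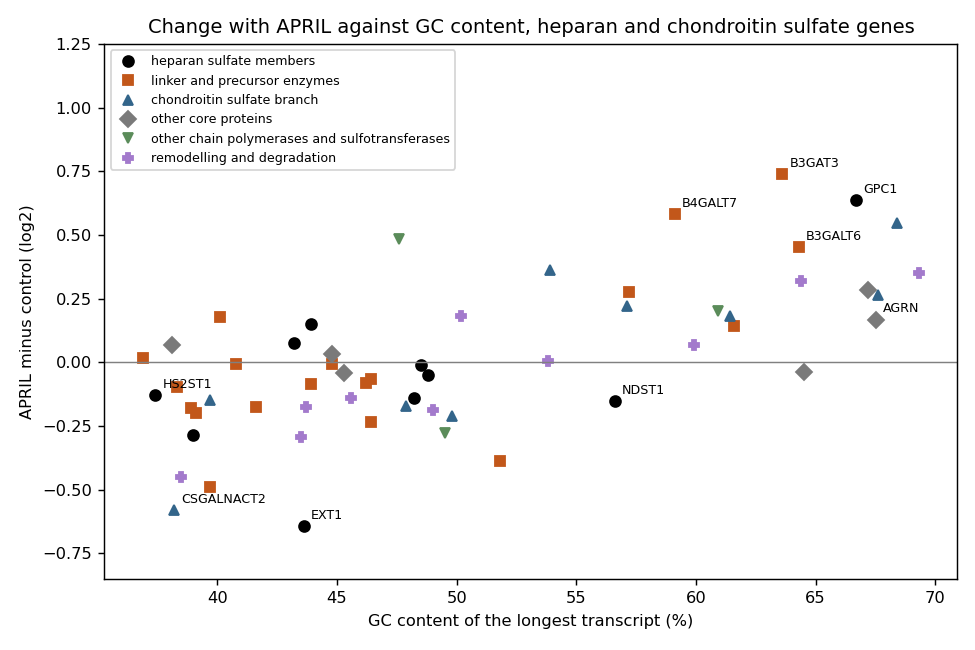
Change of each tested heparan and chondroitin sulfate pathway gene (APRIL minus control, log2) against the GC content of its longest transcript in percent, with a symbol for each gene list. GPC1, B3GAT3, B4GALT7 and B3GALT6 lie at 59.1% to 66.7% GC with changes of 0.45 to 0.74, while CSGALNACT2 at 38.2% GC has -0.58.

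Reads that cannot be assigned to 1 gene could touch 4 of the 10. In the GENCODE annotation of build GRCh38, exons of EXTL2, EXTL3 and NDST1 overlap a noncoding gene on the other strand, and exons of HS2ST1 overlap another protein-coding model on its own strand. The library kit does not mark the strand, so reads from such overlaps cannot be separated. GPC1, SDC2, SDC4, EXT1, EXT2 and GLCE have 0 overlapping exons of other genes in that annotation, which is not the hg19 build used for the alignment.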

How the data were processed

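RNA from 8 MonoMac 6 libraries was analysed, 4 per group, from 1 table of 11530 genes. Per the labels' protocols, the TruSeq RNA v2 kit was used. Per the submitters' processing notes, bcl2fastq and TopHat2 2.0.13 were used with build hg19. The read counter, annotation and gene filter, not given in the sources used here, could change which reads reach a gene. Per the file headers, the authors deposited per-library values scaled by a TMM factor. Their range, below 0 included, makes them log2 values. For each gene the authors deposited a linear fold (ratio) with its p-value, of which those of GPC1 are quoted, and a log10 p-value and a signed score, which are not used here.

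The 10 genes and the pathway lists were chosen with earlier results of these data known. The test was limma 3.58.1 in R 4.3.3 on the deposited log2 values, with a trend of variance on mean value, a robust prior and group as the only term, two-sided, with Benjamini-Hochberg adjustment over 11257 genes. Named genes were all 10 members and, in each other list, the genes with an unadjusted p under 0.05 or else the 2 with the smallest p. XYLT1, XYLT2, FAM20B, SLC26A2, SRGN, CD44, PAPSS1 and CHSY1 were added after their values were seen.

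Reads were recovered as whole numbers, plus 0.5, over 1 divisor per gene, times a factor per library, where under 0.001 chance solutions were expected. This worked for 10798 genes. It worked for 0 of 500 with shifted library factors. Intervals and floors cover counting error only where they are given for reads. Transcript length and GC content came from the longest GENCODE 29 transcript of each symbol (95.9% of tested genes). Trends were additive natural splines with 4 degrees of freedom each, fitted per library to deviations from the gene mean. Alternatives were other filters and scalings, no intensity trend, library quality weights, voom on recovered reads, these trends removed, and each library left out. The scripts were tested on simulated data. Exact permutation tests used 70 relabelings (scipy 1.17.1, Python 3.11.15). One marker gene is not reported here.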

Additional observations from a re-analysis of the deposited data

Results flagged for a closer look

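In 5 of 46 groups of 4 values, 1 library lay far from the other 3, beyond the 95% critical value of Dixon's test. Chance gives about 1 in 20 for independent groups, but these share the same 8 libraries, and the share over all genes is not given here. Every flagged value is in APRIL column 3 or control column 1. Those libraries held the highest value for 33.6% and 26.3% of all genes, and the lowest for 32.9% and 25.7%. SDC2 was high in APRIL column 3, at 6.24. B3GALT6 was low in control column 1, at 6.59. CSGALNACT2 was low in APRIL column 3, at 8.39, and HS3ST1 was high there, at 2.002. ADAM17 was high in control column 1, at 6.88.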

How the results depend on the processing

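No paired analysis was possible because the table columns carry no replicate number. GPC1 had a positive change in 17 of 17 alternatives (+0.33 to +0.75), with an unadjusted p under 0.05 in 16 of them and an adjusted p of 0.20 or more in all. NDST1 and GLCE were negative in all of theirs (17 and 16). The number of genes with an adjusted p under 0.05 was 0 in every fit but that with library quality weights (4, none of them in the lists here). The number with an unadjusted p under 0.05 was 1344, and 507 (without control column 1) to 2247 (without APRIL column 2) with 1 library left out, 669 without APRIL column 4, 813 without control column 3, 888 with length and GC trends removed and 846 without APRIL column 3 and control column 1, a setting chosen after the data were seen. The sign turned in at least 1 alternative for the other 7 of the 10 genes and, of the 10 other genes refitted under the alternatives, for AGRN and NAGLU. With quality weights EXT1 was at +0.19, EXT2 at +0.13, EXTL2 at -0.067 and HS2ST1 at +0.0048. With voom EXT2 was at +0.038. With the trends removed EXT2 was at +0.020, EXTL3 at +0.061, HS2ST1 at +0.14, AGRN at -0.023 and NAGLU at -0.038. Without APRIL column 3 and control column 1 SDC2 was at -0.018, EXT1 at +0.13, EXT2 at +0.055 and HS2ST1 at +0.034. With 1 library left out the ranges were -1.03 to 0.041 for EXT1, -0.076 to 0.042 for EXT2, -0.093 to 0.19 for EXTL2, -0.21 to 0.0077 for HS2ST1, -0.014 to 0.22 for SDC2, -0.14 to 0.038 for SDC4 and -0.072 to 0.36 for AGRN.

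The within-library difference of NDST1 and HS2ST1 ran from -0.21 to 0.086 with 1 library left out, and that of EXT1 and EXT2 was +0.075 without APRIL column 3 and control column 1. The median change of the 10 genes, -0.09, was -0.031 with the stricter floor, which drops EXT1 and GLCE, and -0.031 with quality weights, +0.040 with the trends removed, +0.0078 without APRIL column 3 and control column 1 and -0.11 to -0.013 with 1 library left out. For linker and precursor enzymes it was +0.054 with the trends removed, +0.011 without both libraries and -0.12 to 0.030 with 1 left out. For the chondroitin branch it was +0.0092 with the trends removed, -0.0098 without both libraries and +0.09 to +0.21 with 1 left out. For remodelling and breakdown it was -0.10 to +0.02 with 1 left out. For other core proteins it was +0.19 with voom. For the 3 other sulfotransferases it was -0.039 with the stricter floor, +0.34 with quality weights, +0.29 with voom, +0.035 with the trends removed, +0.34 without both libraries and +0.10 to +0.30 with 1 left out. The cause of these differences was not tested. Of the 10 genes depth limits EXT1 most, with 0 to 16 reads per library, and GPC1 (23 to 127) and GLCE (22 to 154) had few reads too.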
